A study of Saccharomyces cerevisiae with 24 samples.

Results

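Splicing on the chromatin was compared in budding yeast of the Nab2 anchor-away strain (Nab2-AA) after 10 min and after 0 min in rapamycin, with 1 library at each time, so that 2 of the 24 samples of the series carry the comparison. Nab2-AA is MATalpha and carries tor1-1, a deletion of FPR1, RPL13A fused to 2 copies of FKBP12 and NAB2 fused to FRB. Rapamycin was used at 1 ug/ml. The parental strain Control-AA is MATa, carries the same tor1-1, fpr1 deletion and RPL13A-2xFKBP12 alleles without the FRB tag on NAB2, and was sampled at the same times with 1 library each. Mating type therefore differs along with the tag. All 59 genes listed in both Nab2-AA files had at least 1238 reads past the 3′ splice site in each and were kept, and the same 59 genes were measured in Control-AA. There is no replicate of either time, so no p-value is given. Intervals are 95% counting intervals, which cover counting error only, because reads copied by PCR are not independent molecules.

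Nab2 is a nuclear poly(A)-binding protein that takes part in the 3′ end processing, stability and export of yeast mRNA. In the anchor-away method rapamycin bridges FRB and FKBP12, and the ribosomal protein Rpl13A, which passes through the nucleus on its way to the cytoplasm, carries the FRB-tagged protein out with it. The tor1-1 allele makes the cells resistant to the drug, and the absence of Fpr1 removes the cell's own rapamycin-binding competitor. Nab2 itself was not measured in these files, so the extent of its removal at 10 min is not known here.

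Single Molecule Intron Tracking (SMIT) reads whether an intron has been removed while RNA polymerase II is still on the gene. The 3′ end of each nascent RNA marks where the polymerase stood. It is captured with an adapter whose sequence sets which end is read, shown here with its random bases in capitals: NNNNNctgtaggcaccatcaat. A primer in the first exon then reports whether the intron upstream of that end is still present. The reads past the 3′ splice site of Nab2-AA numbered 1497682 (0 min) and 1263469 (10 min), and those of Control-AA 1640980 and 1476301. Per gene, the fraction spliced was taken in 30 nt bins past the 3′ splice site that held at least 10 reads at both times, and the bins were averaged with equal weight. A change of more than 0.1 in this fraction was called.

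After 10 min the spliced fraction was lower over much of the gene set. Of the 59 genes 47 lay below their 0 min value, and the median change was -0.0266. The fraction fell by more than 0.1 in 17 genes (28.8% of those measured) and rose by more than 0.1 in 1 gene, SAC6 (1.69%). The counting interval of the change lay below 0 in 33 genes and above 0 in 3. In Control-AA the median change was -0.00151, with 1 gene lower by more than 0.1 (1.69%) and 1 gene higher (1.69%). With the authors' corrected fraction the contrast between the strains was smaller. The Nab2-AA median was then -0.0162 with 37 of 59 genes lower, and the Control-AA median -0.0113 with 39 of 58 lower. Of the 17 genes 11 stayed past -0.1 there, and ARP9, RPS14B, SEC17, UBC9, YOP1 and YPR063C did not. The labels of all 4 libraries name the same sequencing lane.

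The only measure of spread between libraries of like treatment comes from another strain background. In the pair of untreated wild-type libraries of the series, whose names differ in form, 15 of 48 genes differed by more than 0.1 (31.2%), all of them higher in replicate 2. The median size of the difference was 0.0448 between these wild-type libraries, over their 48 genes. Over all 59 genes it was 0.0382 between the Nab2-AA times and 0.00898 between the Control-AA times. The Nab2-AA change was thus larger than the difference between the Control-AA times. It was of similar size to the difference within the wild-type pair, but the gene sets differ, so which is larger is not shown.

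**Figure D1:**
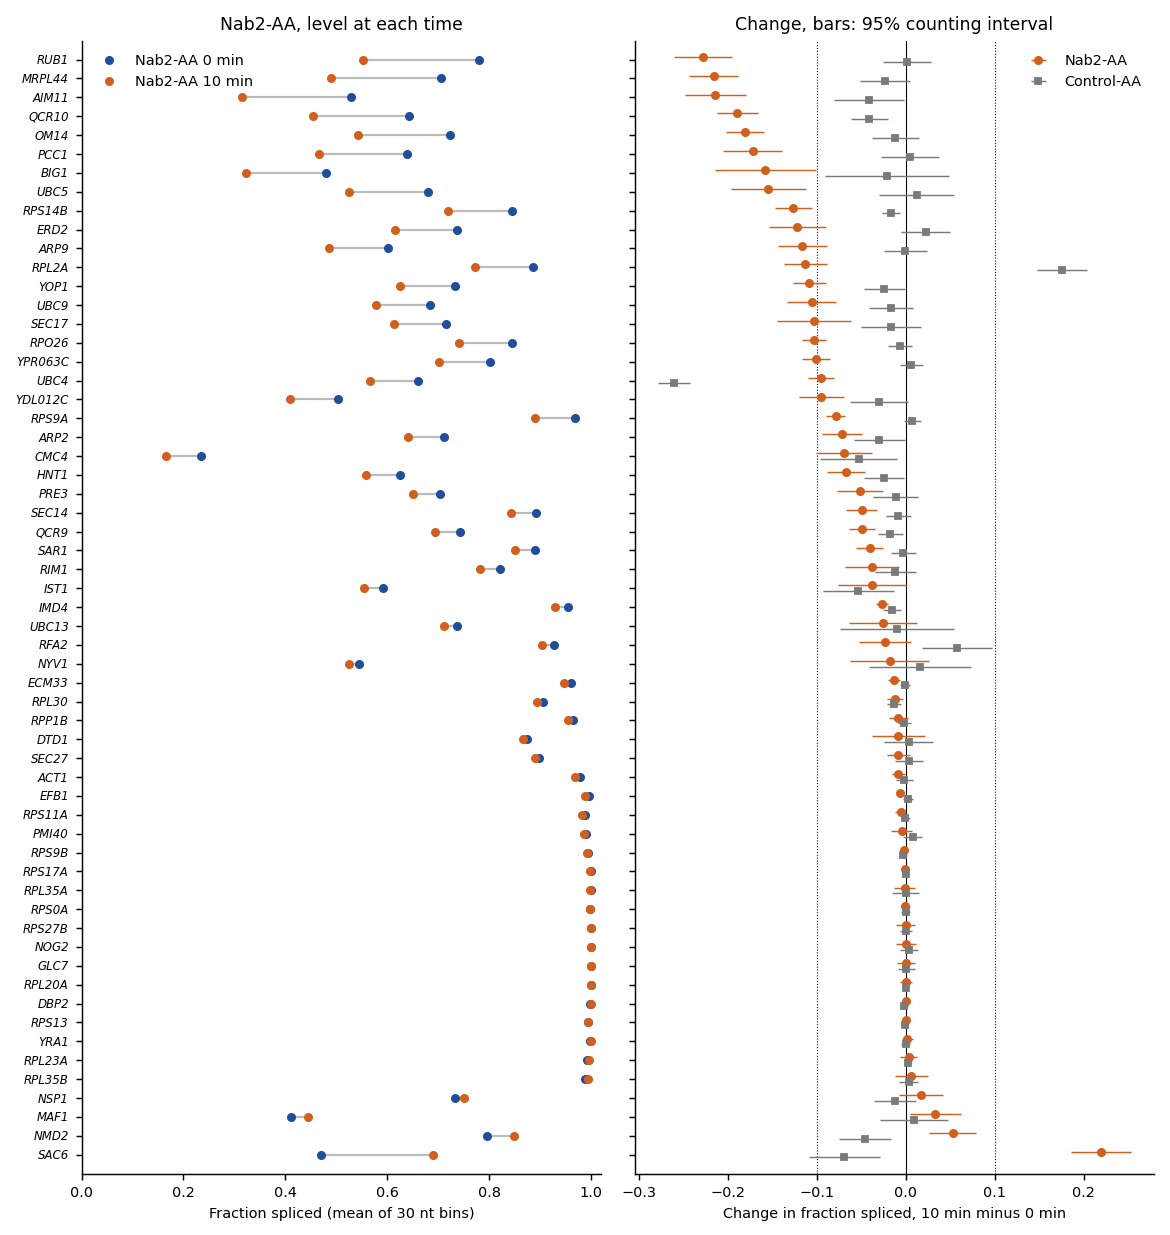
Fraction spliced of each of the 59 genes in Nab2-AA at 0 min (blue) and 10 min (orange), left, and the change in Nab2-AA (orange circles) and Control-AA (grey squares) with 95% counting intervals, right. Dotted lines mark the call at 0.1. The 17 genes called lower form the top of the plot, from RUB1 at -0.228 to YPR063C at -0.101, and SAC6 stands alone at the bottom at 0.220.

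RUB1, which codes for a ubiquitin-like protein that modifies cullins, had the lowest change. Its fraction spliced was 0.780 at 0 min (5552 reads) and 0.552 at 10 min (8586 reads), a change of -0.228 with an interval from -0.260 to -0.195, while Control-AA stood at 0.774 and 0.775. The RUB1 intron lies at chrIV:733703-733775 on the minus strand in sacCer3, and 85 nt of coding sequence follow it. MRPL44, a protein of the mitochondrial large ribosomal subunit, went from 0.706 to 0.490 in Nab2-AA and from 0.792 to 0.769 in Control-AA. Its intron of 147 nt lies at chrXIII:721199-721345. AIM11, a gene named for its effect on mitochondrial inheritance, went from 0.530 (1562 reads) to 0.316 (4935 reads), and from 0.565 to 0.524 in Control-AA. These 3 genes are the ones that fell by more than 0.2.

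Other mitochondrial genes followed, and both had more reads behind their values than MRPL44 and AIM11. QCR10, a subunit of the cytochrome bc1 complex with an intron at chrVIII:107832-107894, stood at 0.643 at 0 min (7219 reads) and 0.453 at 10 min (6530 reads). In Control-AA it stood at 0.670 and 0.630. OM14, an outer membrane protein of mitochondria, stood at 0.723 and 0.543, against 0.794 and 0.783 in Control-AA. Their changes of -0.189 and -0.181 in Nab2-AA compare with -0.0407 and -0.0116 in Control-AA.

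PCC1, a subunit of the complex that makes a modified adenosine in tRNA, went from 0.639 to 0.467, and in Control-AA from 0.652 to 0.657. BIG1, which is needed for cell wall glucan, went from 0.480 to 0.322 on the fewest reads of this group, 1249 and 1843, with an interval of the change from -0.214 to -0.101. UBC5, a ubiquitin-conjugating enzyme, went from 0.680 to 0.526. RPS14B, a small subunit ribosomal protein, went from 0.844 to 0.718, a change that was -0.0448 with the authors' corrected fraction and -0.290 with all reads pooled. ERD2, which binds the HDEL signal of escaped endoplasmic reticulum proteins, went from 0.738 to 0.616. In Control-AA the changes of these last 4 genes lay between -0.0206 and 0.0226. UBC5 shares much of its sequence with UBC4, and RPS14B with RPS14A, and how the counting treated such copies is not stated, so their values carry that uncertainty.

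The remaining genes called lower, named because they complete the 17, were ARP9, RPL2A, YOP1, UBC9, SEC17, RPO26 and YPR063C. RPO26, which codes for a common part of all nuclear RNA polymerases, went from 0.845 to 0.741, and UBC9, the enzyme that conjugates SUMO, from 0.684 to 0.578. YPR063C, at -0.101, lay just past the threshold and UBC4, at -0.0953, just inside it. In 16 of the 17 genes the Control-AA change was within 0.05 of 0, and the exception was RPL2A, at 0.176.

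SAC6, which codes for the actin-bundling protein fimbrin, went the other way. Its fraction spliced was 0.469 at 0 min (6138 reads) and 0.689 at 10 min (6689 reads), a change of 0.220 with an interval from 0.186 to 0.253. In Control-AA it stood at 0.547 and 0.478. Of these 4 values the Nab2-AA value at 0 min was the lowest and that at 10 min the highest. NMD2, a factor of nonsense-mediated decay, went from 0.795 to 0.848, whereas in Control-AA it went from 0.827 to 0.781. MAF1, a repressor of RNA polymerase III, stood at 0.410 and 0.444, and NSP1, a nucleoporin, at 0.733 and 0.750. None of these 3 passed the call.

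The other genes among the 10 highest were all spliced to 0.987 or more at 0 min and had little room to move up. They were RPL35B, RPL23A, YRA1, RPS13, DBP2 and RPL20A, with changes between 0.000254 and 0.00647. ACT1, the gene for actin, went from 0.977 to 0.969 on 19406 and 19747 reads, and in Control-AA from 0.992 to 0.990. With the authors' corrected fraction its Nab2-AA change was 0.0145.

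**Figure D2:**
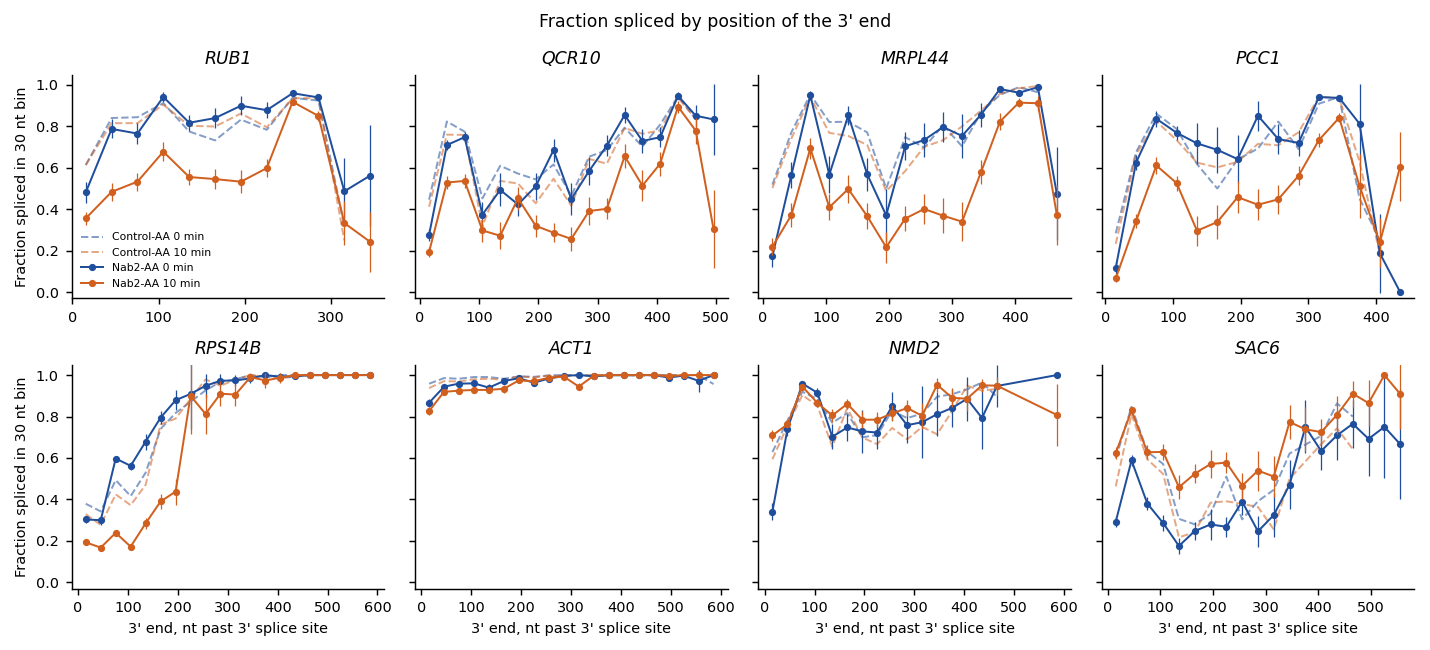
Fraction spliced in 30 nt bins against the distance of the 3′ end past the 3′ splice site (nt) in Nab2-AA at 0 min (solid blue) and 10 min (solid orange, both with 95% counting intervals) and in Control-AA (dashed). In RUB1, QCR10, MRPL44 and PCC1 the 10 min curve runs below the 0 min curve over most bins, in RPS14B mainly before 210 nt, and in SAC6 above it.

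The curves show where along each gene the lower fraction was found. In RUB1 the fraction within 30 nt of the 3′ splice site was 0.481 at 0 min and 0.356 at 10 min, and between 151 and 180 nt it was 0.840 and 0.545. At 241 to 270 nt, where 2371 and 3274 of its reads end, it was 0.960 and 0.918. The RUB1 difference was thus narrow in the bin that held the most reads. In QCR10 the bins at 61 to 90 nt gave 0.748 and 0.537, and those at 211 to 240 nt gave 0.685 and 0.287.

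RPS14B showed the same shape over a longer rise. Its fraction spliced at 61 to 90 nt was 0.597 at 0 min and 0.239 at 10 min, and at 151 to 180 nt 0.795 and 0.390. Over all bins past 300 nt it was 0.994 and 0.986. The lower RPS14B value was therefore found before 210 nt, and its intron, at 408 nt, is the longest among the 17 genes. In SAC6 the first bin gave 0.293 at 0 min and 0.623 at 10 min, and the bin at 151 to 180 nt 0.247 and 0.524, so its rise ran along the curve from the first bin on.

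Over all 59 genes the median was not lower in the first bin and was lower in the third. At 1 to 30 nt 26 of 59 genes were lower at 10 min and the median change was 0.00247. At 61 to 90 nt 53 of 59 were lower and the median change was -0.0404. In Control-AA 44 of 59 were lower in both of these bins, with medians of -0.00769 and -0.00744.

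By window, the median change in Nab2-AA was -0.0143 over 1 to 90 nt (11 genes lower by more than 0.1), -0.0541 over 91 to 180 nt (18 genes), -0.0399 from there to 300 nt (24 genes) and -0.00370 past 300 nt (10 genes). In Control-AA the same windows gave -0.0124, -0.00213, 0 and 0. With the authors' corrected fraction the first window of Nab2-AA had a median of 0.000558, so no direction can be given for 1 to 90 nt. The other Nab2-AA windows stayed below 0 at -0.0346, -0.0613 and -0.0122. The corrected Control-AA windows were -0.0335, -0.0218, -0.00204 and -0.000291. Control-AA was thus lower than Nab2-AA over 1 to 90 nt and also below 0 over 91 to 180 nt. The Nab2-AA value past 300 nt as counted depended on the setting, at -0.0237 with at least 30 reads a bin and -0.0209 with bins of 15 nt.

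**Figure D3:**
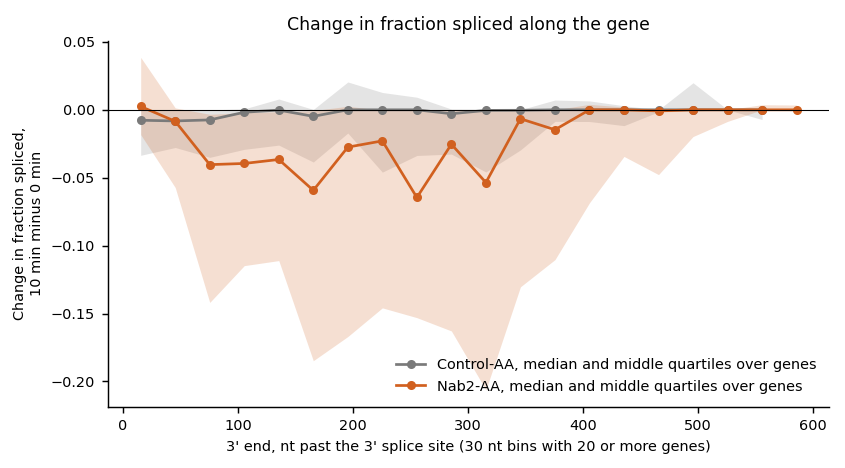
Median change in fraction spliced over genes (10 min minus 0 min) by distance past the 3′ splice site, in bins with 20 or more genes, for Nab2-AA (orange) and Control-AA (grey), with bands between the lower and upper quartile of the genes. The Nab2-AA median starts at 0.00247, stands at -0.0404 in the third bin, and returns to 0 in the bin from 391 to 420 nt.

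The place where splicing reached 50% of its plateau moved in few genes. With the curve smoothed over 3 bins this position was the same at both times in 49 of 59 genes, later at 10 min in 8 and earlier in 2. In UBC9 it lay at 75.5 nt at 0 min and 315.5 nt at 10 min, in RPS14B at 105.5 and 195.5 nt, and in CMC4, a small mitochondrial protein, at 345.5 and 435.5 nt. It was earlier in AIM11, at 105.5 and 75.5 nt, and in UBC5, at 45.5 and 15.5 nt. In Control-AA it was the same in 55 genes. Bins limit this measure to steps of 30 nt, and in most genes the plateau was already past that point in the first bin.

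Grouped by what the genes code for, the counts of genes called lower are read against the 28.8% over all genes, and the counts of genes below their 0 min value against 47 of 59 (37 of 59 with the authors' corrected fraction). Of 15 ribosomal protein genes 2 were called lower, RPS14B and RPL2A, and of the 44 other genes 15. The median change was -0.00116 in ribosomal protein genes, where it turned to 0.0138 with the authors' corrected fraction, and -0.0494 in other genes, where it was -0.0362. Most ribosomal protein genes were close to fully spliced at 0 min, with a median fraction of 0.991 against 0.735. On the odds scale, which does not shrink near 1, the median log2 ratio of the odds of being spliced was -0.32 in ribosomal protein genes and -0.51 in the others.

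Among 6 genes of mitochondrial proteins, all were below their 0 min value and 3 were called, QCR10, OM14 and MRPL44, with a median change of -0.125. QCR9, another bc1 subunit and the list's gene with the most reads, stood at 0.743 and 0.694, and at 0.00326 above its 0 min value with the authors' corrected fraction. RIM1, the mitochondrial single-stranded DNA-binding protein, stood at 0.821 and 0.783. Among 6 genes of ubiquitin-like conjugation and the proteasome, all were below 0, also with the authors' corrected fraction, and RUB1, UBC5 and UBC9 were called, with changes over the list from -0.228 to -0.0257. UBC9 lost its call with the corrected fraction, at -0.0756, and UBC13 reached 0.0436 in another setting. UBC4 went from 0.661 to 0.565, and in Control-AA from 0.717 to 0.457, the one gene called lower there.

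Of 7 membrane traffic genes all were below 0 as counted and 5 with the authors' corrected fraction, where NYV1 stood at 0.0229 and SEC27 at 0.0270. ERD2 and SEC17 were called, and the median was -0.0405. SEC14, the phosphatidylinositol transfer protein, stood at 0.893 and 0.843. Both genes listed under transcription and chromatin, RPO26 and ARP9, were called, RPO26 alone with the corrected fraction. Of 4 actin-related and cytoskeletal genes ARP9 was called lower and SAC6 higher. In the cell wall list BIG1 was called, and ECM33, a cell surface protein, stood at 0.961 and 0.948, a change that was 0.0108 with the authors' corrected fraction.

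As counted, 0 of the 5 measured genes of RNA processing and export lay below their 0 min value, and 1 did with the authors' corrected fraction, DBP2 at -0.00693. They were YRA1, an export adaptor, DBP2, an RNA helicase, NOG2, a GTPase of ribosome assembly, NMD2 and NSP1. Their median change was 0.00156, and 3 of them were spliced to 0.998 or more at 0 min. With each position weighted equally, these 3 (YRA1, DBP2 and NOG2) were below 0, by less than counting error. Among 5 genes whose splicing or intron is known to be regulated by their own product, RPS14B was called as counted and 0 with the corrected fraction. RPL30 stood at 0.906 and 0.894, a change that was 0.0326 with the authors' corrected fraction. Of 3 hosts of intronic snoRNAs, EFB1, a translation elongation factor, stood at 0.995 and 0.988 and none was called. No gene of the meiotic list was measured.

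The genes called lower shared a range of starting values and, with 1 exception, short introns. Their fraction at 0 min lay between 0.480 and 0.885. Of the 35 genes that started between 0.4 and 0.9, 17 were called lower and the median change was -0.0953, and of the 23 that started at 0.9 or more none was. Introns under 160 nt were found in 34 genes, among them 16 of the 17, and the median change was -0.0950 in these 34 and -0.00235 in the 25 genes with longer introns. Both splits were chosen after the values were seen. Starting fraction and intron length go together here, with medians of 0.709 and 0.991 at 0 min in the short and long group, so their parts cannot be told apart. In the authors' corrected fraction, which depends on intron length, the medians were -0.0706 and 0.0117.

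Polymerase positions before the 3′ splice site were counted as well. Ends were taken from the 100 nt before the 3′ splice site and from all positions past it. The share before the site is called the share in the intron below. Where an intron is shorter than 100 nt, as in QCR10 (63 nt), PMI40 (93 nt) and OM14 (97 nt), these positions also reach upstream of it. In such genes the share can hold ends in the first exon. The Nab2-AA median of the share over genes was 14.3% at the start and 22.7% after 10 min. In Control-AA the medians were 21.0% and 19.9%. The share was higher at 10 min in 48 of 59 genes and lower in 10, and it was higher by more than 5 percentage points in 25 genes (42.4%), against 2 genes in Control-AA (3.39%). It was higher in each of the 17 genes with a lower spliced fraction. As a share of unspliced molecules alone, ends in the intron changed little. The Nab2-AA medians were 57.3% and 58.5%, with 33 genes higher and 25 lower. In Control-AA they were 63.8% and 63.5%, with 22 genes higher and 36 lower. Both shares were examined after the fractions were seen. Reads that end before the 3′ splice site cannot be spliced and do not enter the fraction spliced. They come from the same libraries and are set against the same reads past the 3′ splice site, so the shares are no independent measure.

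In OM14 the share in the intron was 26.0% at 0 min and 43.5% at 10 min, and in Control-AA 38.1% and 41.9%. In QCR10 it was 13.1% and 27.5%, against 21.0% and 19.9%. PMI40, an enzyme of mannose metabolism whose spliced fraction stayed at 0.989 and 0.985, had 6.31% and 19.8%. The 2 genes that were lower by more than 5 points were NMD2, with 32.1% and 18.7%, and SAC6, with 44.4% and 29.3%, both genes whose spliced fraction was higher at 10 min. In OM14 and QCR10 the Nab2-AA value at 0 min lay below both Control-AA values. The Nab2-AA library thus differed from Control-AA already at 0 min, and the part of that difference in these changes was not tested.

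**Figure D4:**
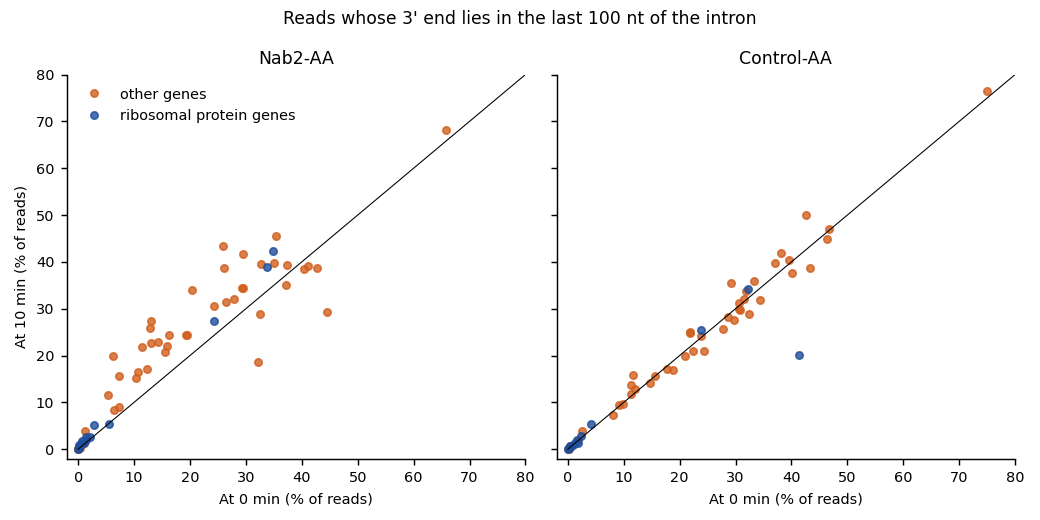
Percent of reads whose 3′ end lies in the 100 nt before the 3′ splice site, for each gene in Nab2-AA and Control-AA. The x axis is 0 min and the y axis 10 min, with ribosomal protein genes in blue. Where an intron is shorter than 100 nt, these positions also reach upstream of it. In Nab2-AA 48 of 59 genes lie above the diagonal, and NMD2 and SAC6 lie furthest below it, while Control-AA genes lie along it.

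Split into spliced and unspliced molecules past the 3′ splice site, the Nab2-AA change in library share was larger for unspliced molecules. Unspliced reads, taken as RPM (reads per 1000000 reads of the library), were higher at 10 min in 51 of 59 genes, with a median log2 ratio of 0.73, and more than 2-fold higher in 17. Spliced RPM had a median log2 ratio of 0.05 and were lower in 29 genes. In Control-AA the medians were 0.10 and -0.03. Over the library, 93.8% of Nab2-AA reads were spliced at 0 min and 89.7% at 10 min, and 94.4% and 93.8% in Control-AA. RPM values are shares of a library made with gene-specific primers, so they show no change in total RNA. The median log2 ratio of total RPM was itself 0.197 in Nab2-AA, above that of spliced reads. The split between the classes therefore depends on where 0 is set.

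RUB1 had 453 unspliced RPM at 0 min and 2046 at 10 min, and AIM11 had 484 and 2825. In MRPL44 and PCC1 the log2 ratio of unspliced reads was 1.64 and 1.54 while that of spliced reads was -0.04 and 0.07. QCR10, OM14 and RPS14B combined more unspliced reads (0.76, 1.03 and 1.27) with fewer spliced ones (-0.44, -0.45 and -0.46). SAC6 was the reverse, with a log2 ratio of -0.53 for unspliced and 1.18 for spliced reads. YRA1 was the one gene over 2-fold lower in unspliced reads, but on 28 and 11 such reads.

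**Figure D5:**
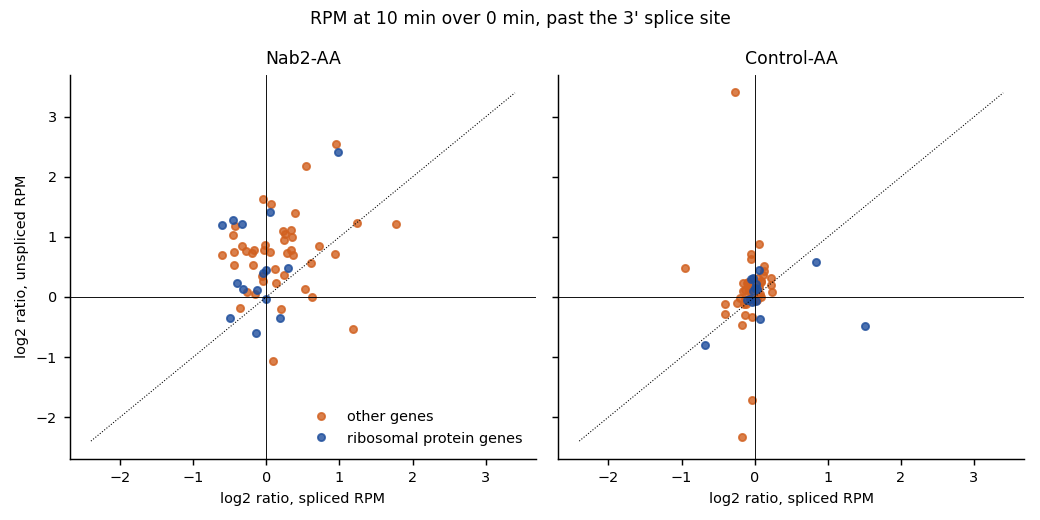
Log2 ratio of unspliced (y axis) against spliced (x axis) RPM, 10 min over 0 min, for each gene past its 3′ splice site, with ribosomal protein genes in blue. In Nab2-AA 51 of 59 genes lie above 0 on the y axis with a median of 0.73, while most Control-AA genes gather near 0 on both axes.

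The total RPM of a gene was more than 2-fold higher at 10 min in 4 genes (6.78%) and more than 2-fold lower in 0. AIM11 stood at 1043 and 3906 RPM, NMD2 at 2391 and 7585, and MAF1 at 2050 and 4808. RPL2A, a large subunit ribosomal protein with the near copy RPL2B, stood at 3577 and 8333, and was 2.44-fold higher in Control-AA as well, the 1 gene past 2-fold there (1.69%). In AIM11 both classes were higher, with a log2 ratio of 2.54 for unspliced and 0.95 for spliced reads, whereas in NMD2 it was 1.22 and 1.78. The lowest ratios were those of RPL20A, EFB1 and RPS9B, at 0.705, 0.752 and 0.763 times the 0 min share.

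The 3′ ends themselves moved little. Per gene, the median position of 3′ ends past the splice site had a median over genes of 108 nt at 0 min and 115 nt at 10 min, and the median shift was 6 nt, against 2 nt in Control-AA. It lay more than 30 nt further downstream in 8 genes (13.6%) and more than 30 nt upstream in 3 (5.08%), against 6 (10.2%) and 1 (1.69%) in Control-AA. RPL23A moved from 146 to 394 nt, RPS11A from 133 to 329 nt, RPS13 from 176 to 232 nt and RPS0A from 95 to 146 nt. The coding end of RPL23A lies at 372 nt. Its reads before that point went from 22336 to 13873, and those past it from 15778 to 15203. In Control-AA they went from 45621 to 23000 and from 27843 to 18160. PCC1 moved from 253 to 173 nt, AIM11 from 180 to 132 nt and RIM1 from 279 to 235 nt. The counts depended on the setting. With reads at a position capped at 5 times the gene's median, 4 genes lay downstream and 1 upstream and the median shift was 9 nt, and with positions up to 300 nt 1 gene lay downstream, 0 upstream and the median shift was 1 nt.

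By median position, unspliced reads moved more than spliced reads. Their median position went from 74 to 93 nt over genes, with a median shift of 10 nt and 13 genes more than 30 nt downstream, against a shift of 0 nt and 2 genes in Control-AA. The median shift of spliced reads was 4 nt, with 8 genes more than 30 nt downstream, against 1 nt and 8 genes in Control-AA. Past 200 nt lay a share of reads that was higher at 10 min in 45 of 59 genes, by a median of 3.5 percentage points, against 36 genes and 1.07 points in Control-AA. Past the end of the coding sequence lay 421808 Nab2-AA reads (0 min) and 399696 (10 min), of which 889 and 989 ended more than 250 nt past it. These counts are not scaled to the library, and the 10 min library was the smaller. As a share of the gene's reads, those past the coding end were higher in 20 genes and lower in 27, with a median change of 0. In Control-AA the share was higher in 29 genes and lower in 14. ACT1, NMD2 and SAC6, which have long second exons, had 0 reads past the coding end at either time. Among the 34 genes with enough reads on both sides, the median change in fraction spliced was -0.0261 before the coding end and -0.00846 past it.

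Set against Control-AA gene by gene, the Nab2-AA change was the lower of the 2 in 44 of 59 genes, and the median difference of changes was -0.0159. It was below -0.1 in 13 genes (22.0%) and above 0.1 in 2, SAC6 and UBC4, and its counting interval lay below 0 in 28 genes and above 0 in 4. With the authors' corrected fraction the median was -0.00935, with 35 of 58 genes below 0, 13 below -0.1 and 5 above 0.1. In RUB1 the difference of changes was -0.229 (interval -0.271 to -0.187), in MRPL44 -0.192 and in QCR10 -0.148. In UBC4 it was 0.165, because the Control-AA change of this gene was the lower. No library is shared between these comparisons, but each rests on 1 library per time, and the difference was not tested against a spread between replicates.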

How the data were processed

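Per the file headers, the deposited SMIT files give for each gene and 3′ end position a read count and the fraction of those reads that is spliced, as counted and as corrected by the authors. The authors' deposited tables of differences give a score per gene on an unknown scale. The tools named are bedtools 2.29.2, SAMtools 1.9, minimap2 2.17, cutadapt 1.9.1 and HISAT2 2.1.0, with the build sacCer3 (per the submitters' processing notes, which give no roles), and removal of PCR copies is not given in the sources used here.

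Spliced reads were recovered as the fraction times the count. Fractions were averaged over 30 nt bins with at least 10 reads at both times, for genes with at least 20 reads. The members and gene lists were chosen with earlier results of these data known. RPP1B was added to its list later. Named genes are the 10 lowest and 10 highest changes, ACT1, the largest shifts of the 50% position (3 each way), of the median 3′ end (4 each way) and of RPM (3 each way), and the gene with most reads per list. Others are named after their values were seen. Reads ending before the 3′ splice site, the coding end split and the wild-type pair were likewise added after the values were seen. So were the splits by intron length and starting fraction. Intron lengths, as used in the splits, came from the authors' correction factor. Introns were placed by gaps in the deposited long reads within 2 nt of that length, in 58 of 59 genes (not CMC4). The gap rested on 1 read in QCR10, IMD4 and UBC5. Coding ends came from RefSeq R64. Recovery was tested on simulated data. The work was done in Python 3.11.15 (matplotlib 3.10.9, SciPy 1.17.1, pandas 2.3.3, numpy 2.4.6).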

Additional observations from a re-analysis of the deposited data

Results flagged for a closer look

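In 3 genes the change at 10 min went one way in Nab2-AA and the other way in Control-AA, beyond counting error in both strains. These differences were not tested, since each value is 1 library at each time. SAC6 changed by 0.220 in Nab2-AA and -0.0688 in Control-AA, a difference of 0.288. RPL2A changed by -0.113 in Nab2-AA and 0.176 in Control-AA, a difference of -0.289, and its RPM values were over 2-fold higher at 10 min in both strains. NMD2 changed by 0.0529 in Nab2-AA and -0.0461 in Control-AA, a difference of 0.0991, and its RPM values were 3.17-fold higher in Nab2-AA and 0.935 times the 0 min share in Control-AA.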

How the results depend on the processing

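No paired analysis was possible because each strain has 1 library per time. Of 443 alternatives to 52 results, 344 stayed within counting error or 1.5 times a count, 95 moved beyond it and 4 reversed. The 344 include the settings that changed only the minimum of reads a gene. Every gene passed each such minimum in Nab2-AA, so these settings could not change a Nab2-AA result and tested nothing there. With no minimum the Control-AA results could not change either. The 344 therefore overstate how many results were put to a test. The reversals came with the authors' corrected fraction: ACT1 at 0.0145, QCR9 at 0.00326, RPL30 at 0.0326 and ECM33 at 0.0108. These 4 had a change beyond counting error as counted, and another 11 named genes, whose change lay within it, changed sign in 14 alternatives. The 1 to 90 nt window also changed sign with the corrected fraction, at 0.000558, within counting error. Genes lower by more than 0.1 numbered 11 with the corrected fraction and between 11 and 18 over all settings, and 9 genes were called in each setting (AIM11, BIG1, ERD2, MRPL44, OM14, PCC1, QCR10, RUB1 and UBC5). Bins of 60 nt gave 2 genes higher. With the corrected fraction the median changes were -0.0162 in Nab2-AA and -0.0113 in Control-AA, and the median difference -0.00935. The Nab2-AA median was -0.0483 with positions up to 300 nt. With the 0 min correction constant used for both times, an alternative added after seeing the data, it was -0.0474 and the median difference from Control-AA -0.0493. For 3′ ends, positions up to 300 nt gave a median shift of 1 nt, with 1 gene downstream, 0 upstream and 2.04 points past 200 nt. Capped reads gave 9 nt, 4 genes, 1 gene and 1.83 points, and the share past 300 nt was 1.62 points. The cause was not tested. With 1 library per time, values show these libraries and no spread between cultures.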

Other observations

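The authors' corrected fraction follows a single form in each library. The odds of being spliced are multiplied by a factor that falls exponentially with intron length, and the fitted rate per nt was 0.007 (Nab2-AA, 0 min), 0.00555 (Nab2-AA, 10 min), 0.00672 (Control-AA, 0 min) and 0.007 (Control-AA, 10 min). For the 110 nt intron of UBC9 the Nab2-AA factor was 0.466 and then 0.546, and for RPS27B, with a longer intron, 0.0214 and 0.0475. In Nab2-AA the correction therefore raises the 10 min odds relative to the 0 min odds, and by more in longer introns. In Control-AA it lowers them, with a UBC9 factor of 0.481 and then 0.466.

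The authors' deposited table of differences for Nab2-AA at 10 against 0 min lists 57 genes with 38 distinct values, and 19 rows hold exactly the value of the row above, in runs of up to 5. In that table negative values make up 48 of 57. Of the 25 values in the authors' deposited table that occur once, 22 are negative, 24 have the sign of the change as counted, and 22 that of the corrected change. The authors' deposited table gives RUB1 -0.811, SAC6 0.532 and ACT1 -0.199, and it gives NMD2 -0.4275, opposite to the change of 0.0529 as counted. AIM11 stands there at 0.356, a value that the next row repeats, also opposite to its change of -0.214 as counted. The corresponding Control-AA table has 57 rows and 43 distinct values.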
